A study of Mus musculus with 24 samples.

Results

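The antioxidant enzymes and metallothioneins described here were 10 genes, Hmox1, Nqo1, Gclc, Gclm, Txnrd1, Sod1, Sod2, Cat, Mt1 and Mt2, in the retina of C57Bl/6 mouse pups. They were taken as every probe set whose platform annotation gave 1 of these symbols, which found 18 probe sets among 22626 without controls, and 10 of 12393 genes named on the array. The tested pups breathed hyperoxia up to postnatal day 7, 8, 10 or 12, for 12, 24, 72 or 120 hours, and pups of the same ages stayed in room air. Each of these 8 groups had 3 arrays, so 24 arrays of retinal total RNA were compared. All animals carried the same strain label and no allele or drug was named. Neither the oxygen concentration is labelled, nor the number of pups behind an array, nor whether arrays of a group came from different pups. Each p-value therefore reflects only how far these arrays spread, and that spread may be technical. Age and length of exposure increase together in the hyperoxia groups and cannot be told apart there.

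Cells limit oxygen-derived damage with enzymes that remove superoxide and peroxide, with the thiol systems built on glutathione and thioredoxin, and with small metal-binding proteins. Many of these genes are switched on by the transcription factor NRF2, which binds antioxidant response elements, while metallothionein genes are also driven by the zinc sensor MTF1 through metal response elements. In retina, a tissue with a high oxygen demand and a vessel bed that is still growing after birth in mice, both groups of genes are studied in oxygen injury.

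Promoters are shown for 3 genes, the metallothioneins Mt1 and Mt2, and Txnrd1, which had a probe set that passed in both age comparisons below. Sod1, which had a probe set that passed in room air, is not shown. RefSeq start sites on GRCm38.p6 gave windows of 250 bases before to 50 bases after the start for 8 of the 10 genes, 10 windows in all. Hmox1 and Gclc had no entry. For the metallothionein windows the capitals mark the metal response element core, TGCACNC or TGCGCNC on either strand. For the Txnrd1 window they mark the antioxidant response element core, TGACNNNGC on either strand. Of the Txnrd1 windows only that with a match to this core is shown. The windows lie on the plus strand at chr8:94178839-94179138 (Mt1), chr8:94172368-94172667 (Mt2) and chr10:82858956-82859255 (Txnrd1).
Mt1: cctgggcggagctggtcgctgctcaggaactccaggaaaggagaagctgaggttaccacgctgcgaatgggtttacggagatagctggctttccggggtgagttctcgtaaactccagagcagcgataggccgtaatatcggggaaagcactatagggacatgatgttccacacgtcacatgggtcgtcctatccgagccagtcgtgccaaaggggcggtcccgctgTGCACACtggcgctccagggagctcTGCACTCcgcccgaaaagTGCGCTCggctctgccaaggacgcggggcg
Mt2: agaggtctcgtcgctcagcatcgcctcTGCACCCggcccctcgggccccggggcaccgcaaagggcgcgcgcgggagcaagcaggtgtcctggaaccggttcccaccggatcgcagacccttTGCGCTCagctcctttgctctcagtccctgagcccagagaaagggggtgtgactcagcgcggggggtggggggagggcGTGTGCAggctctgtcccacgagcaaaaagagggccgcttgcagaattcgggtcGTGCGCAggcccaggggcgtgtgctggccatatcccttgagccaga
Txnrd1: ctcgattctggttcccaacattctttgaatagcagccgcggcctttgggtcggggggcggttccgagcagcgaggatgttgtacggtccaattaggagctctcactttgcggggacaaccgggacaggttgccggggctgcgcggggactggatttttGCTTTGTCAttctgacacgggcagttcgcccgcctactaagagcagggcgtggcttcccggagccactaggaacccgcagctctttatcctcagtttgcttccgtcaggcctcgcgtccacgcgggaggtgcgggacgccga
Mt1 held 3 matches to the metal response element core and Mt2 held 4, and the starts of these neighbouring genes lay 6471 bases apart on the same strand. Gclm also held 3 such matches, 1 of them overlapping its antioxidant response element match. This core occurred in 25.7% of all 32851 promoter windows of that length. The antioxidant response element core occurred in 12.39% of them, and in 4 of the 8 matched genes, Gclm, Sod1, Mt2 and Txnrd1, the last in 1 of its 3 windows. Counted as windows, the unit of the 12.39%, the members had it in 4 of 10. A match describes letters and is no evidence of binding.

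Of the 18 probe sets, 17 passed the filter on dim probe sets and were tested. The exception was the second Mt1 probe set, 1451612_at, whose group means lay between 7.09 and 7.15 on the log2 scale, at or next to the floor of 7.09 to which low values were raised. The values below are log2 of quantile-normalized intensity, and levels are compared within a probe set only. The range of the 8 group means went from 0.16 for Sod2 1448610_a_at to 1.15 for Hmox1. Ordered by level, neighbouring groups differed by less than the pooled SD throughout for every tested probe set but Txnrd1 1421529_a_at, Mt1 1422557_s_at and Sod2 1417193_at. The retina label held for its markers: 9 of 11 were on the array and tested, at mean log2 levels of 12.65 to 15.21. In bulk tissue, fewer cells of a type and less RNA per cell cannot be told apart. Markers of other tissues varied among the arrays. The lens score, the mean log2 of 12 of 16 lens markers, ran from 7.58 to 14.00 over arrays, and the pigment score, from 9 of 12 pigment epithelium and melanocyte markers, from 9.45 to 11.93. Rlbp1 counts among both the retina and the pigment markers, so the pigment score is not independent of retina. Of 8 endothelial markers tested, 7 were lower in hyperoxia averaged over the days, with a median difference of -0.307. The adjusted test given below was passed by 2, Cldn5 (lower by 0.66) and Eng (lower by 0.64), beside 0.492% of all probe sets.

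Hyperoxia against room air asked whether high oxygen altered these genes at each age. No member probe set passed the test, limma with Benjamini-Hochberg adjustment over all 15838 tested probe sets, at day 7, 8, 10 or 12. The background was small too: 0.0631% of all probe sets passed at day 7, 0.0821% at day 8, 0.0631% at day 10 and 0.0126% at day 12. Averaged over the 4 days, 0 of 17 passed and 0.492% of all did. At an unadjusted p under 0.05, the members gave 0 of 17 at each single day and 1 of 17 on average. All probe sets gave 503 (3.176%), 780 (4.925%), 1729 (10.92%) and 1383 (8.732%) at days 7, 8, 10 and 12. On average they gave 1416 (8.941%). Limma was the only tool run.

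The intervals show how precisely each difference was estimated. They are not adjusted for the number of probe sets, so the adjusted test could miss changes larger than their half-widths. At a single day the 95% interval of a member's hyperoxia difference reached 0.39 log2 either side as a median over probe sets, a factor of 1.31, and 1.28, a factor of 2.43, for Hmox1. For the average of days the median half-width was 0.19, a factor of 1.14. The median absolute difference over members was 0.12 at day 7, 0.17 at day 8, 0.17 at day 10 and 0.11 at day 12, beside 0.11, 0.12, 0.16 and 0.14 over all probe sets.

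**Figure D1:**
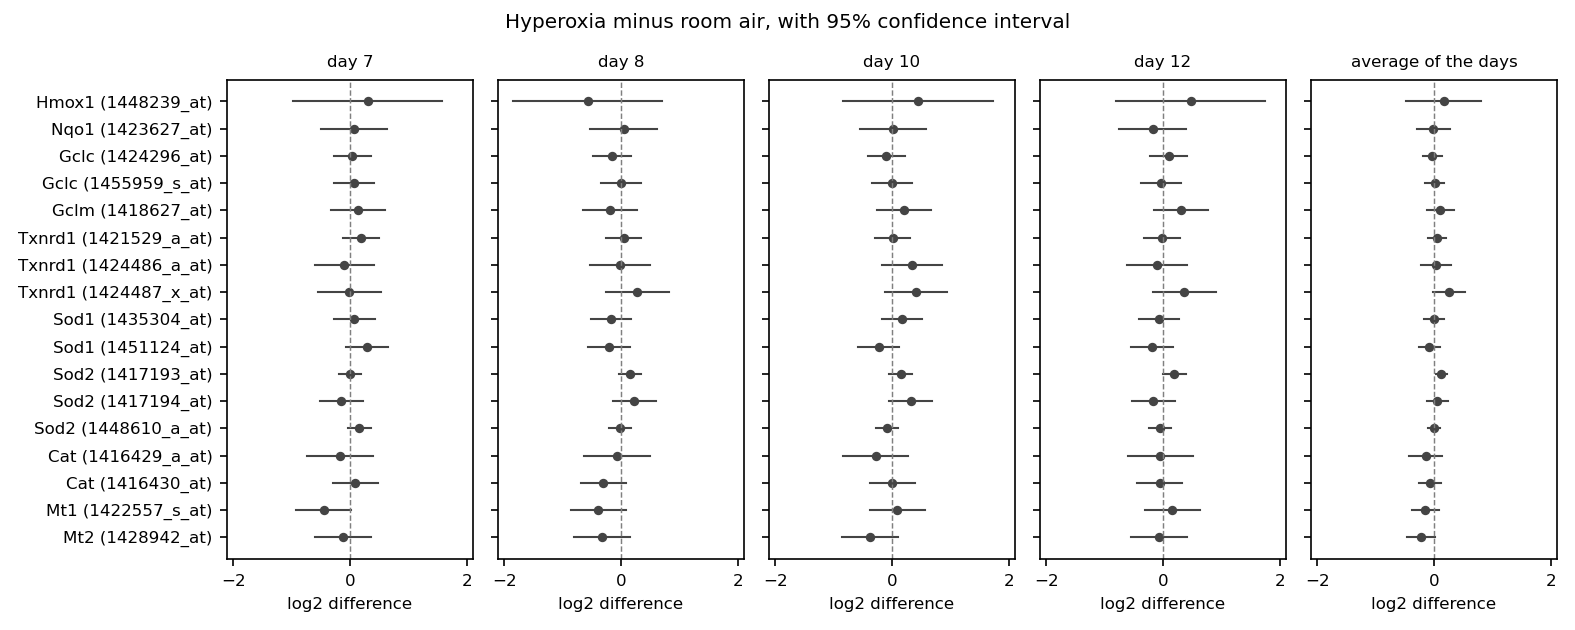
Hyperoxia minus room air (log2 difference, horizontal axis) for the 17 tested probe sets, in 5 panels for days 7, 8, 10 and 12 and their average. Points are estimates and lines 95% confidence intervals from limma; Hmox1 has the widest intervals, and none of the probe sets passed the adjusted test in any panel.

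Hmox1, heme oxygenase 1, cleaves heme and is a strongly inducible NRF2 target. Its arrays read 8.28, 7.09 and 9.42 in hyperoxia at day 7, against 8.69, 7.33 and 7.86 in room air. At day 12 they read 8.21, 9.87 and 8.96 in hyperoxia, against 8.19, 7.39 and 10.04 in room air. The groups overlapped at both ages, 1 hyperoxia array lay at the floor, and the pooled SD was 0.82. At day 8 the hyperoxia mean was 7.86 ± 0.57, against 8.43 ± 0.13 in room air, and at day 10 it was 8.43 ± 0.78, against 7.99 ± 0.31 in room air (SD, n = 3 each). The order of the groups was not resolved, since no step between neighbouring group means exceeded the pooled SD. The average hyperoxia difference was 0.16 ± 0.31 (SE; 95% interval -0.48 to 0.80; limma adjusted p = 0.921).

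Nqo1, a quinone reductase used as a readout of NRF2 activity, had group means in hyperoxia of 8.45, 8.56, 8.74 and 9.03 from day 7 to day 12, against 8.38, 8.51, 8.72 and 9.21 in room air. Each day's pair lay closer than the pooled SD of 0.36. The average hyperoxia difference was -0.01 (95% interval -0.29 to 0.27; limma adjusted p = 0.992), so the interval ran from 0.815-fold to 1.21-fold.

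Glutamate-cysteine ligase makes the precursor of glutathione, with Gclc its catalytic and Gclm its modifier subunit. The average hyperoxia differences were -0.03 and 0.01 for the Gclc probe sets 1424296_at and 1455959_s_at and 0.11 ± 0.11 for Gclm. At day 8 the 3 hyperoxia arrays of Gclc 1424296_at read 10.17, 10.39 and 10.26, against 10.41, 10.48 and 10.39 in room air. The highest hyperoxia array, at 10.385, lay only just below the lowest room air array, at 10.391, beside a pooled SD of 0.19. Arrays did not overlap for 9.96% of all probe sets in either direction. The limma difference of -0.16 did not pass (limma adjusted p = 0.964). Gclm group means lay between 9.66 and 9.90 in hyperoxia and between 9.59 and 9.86 in room air.

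Txnrd1, cytosolic thioredoxin reductase, keeps thioredoxin reduced. Its 3 probe sets gave average hyperoxia differences of 0.05 ± 0.07, 0.03 ± 0.12 and 0.26 ± 0.13, the last for 1424487_x_at, a type of probe set that may bind other transcripts (limma adjusted p = 0.584). None passed the test.

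Sod1 is the copper and zinc superoxide dismutase of the cytosol, Sod2 the manganese enzyme of mitochondria, and Cat, catalase, breaks down hydrogen peroxide in peroxisomes. The Cat probe set 1416429_a_at had hyperoxia means of 11.20, 11.30, 11.05 and 11.10 from day 7 to day 12, against 11.37, 11.37, 11.33 and 11.14 in room air, with a pooled SD of 0.35. The Sod1 averages were 0.00 and -0.08, and those of the Cat probe sets -0.14 and -0.07. Sod2 gave the only member result at an unadjusted p under 0.05: probe set 1417193_at averaged 0.12 ± 0.05 higher in hyperoxia (95% interval 0.03 to 0.22; limma adjusted p = 0.411) and so did not pass. Its other probe sets gave 0.06 and -0.00, and at day 10 1448610_a_at read 12.33, 12.32 and 12.30 in hyperoxia, against 12.44, 12.39 and 12.37 in room air. Those arrays did not overlap, which 21.5% of all probe sets shared at day 10 in either direction.

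Mt1 and Mt2 encode cysteine-rich proteins that bind zinc and copper. Mt1 1422557_s_at, a type of probe set that may match transcripts of several genes, read 10.14, 10.31 and 9.86 in hyperoxia at day 7, against 10.40, 10.70 and 10.55 in room air. All hyperoxia arrays lay below all room air arrays, as for 7.05% of all probe sets in either direction, yet the difference of -0.45 ± 0.22 (95% interval -0.92 to 0.02) had a limma adjusted p of 1.000. At day 12 the difference was 0.16 and no member's arrays were separate between hyperoxia and room air, against 11.7% of all probe sets. Mt2 averaged -0.23 ± 0.11 over the days (95% interval -0.47 to 0.01; limma adjusted p = 0.594) and Mt1 -0.15 ± 0.11.

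**Figure D2:**
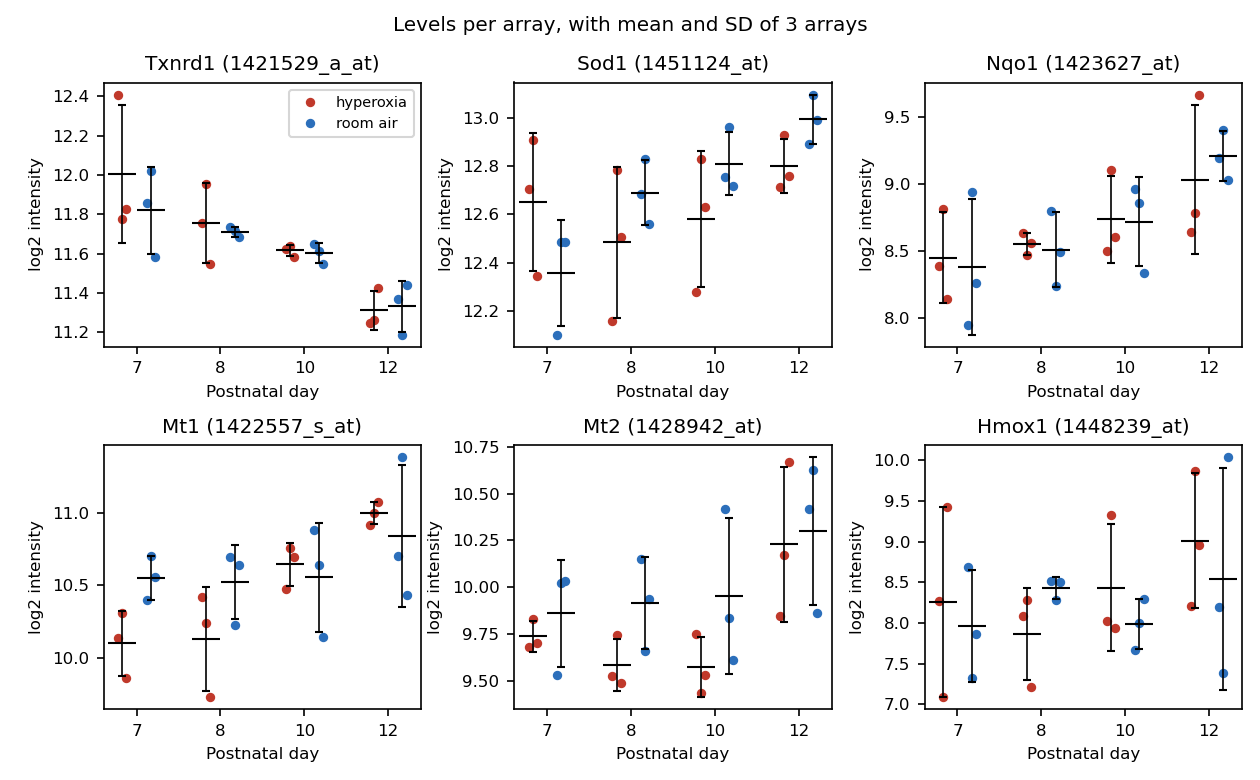
Log2 level of every array for 6 member probe sets (Txnrd1 1421529_a_at, Sod1 1451124_at, Nqo1, Mt1 1422557_s_at, Mt2 and Hmox1) by postnatal day, hyperoxia left of room air; points are arrays, bars the mean and SD (n = 3). Txnrd1 is lowest at day 12 in both gases, and the Hmox1 arrays spread most.

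Day 12 against day 7 compared the 2 ages, once in hyperoxia and once in room air. In hyperoxia the exposure was also longer at day 12, 120 hours against 12, so age and exposure are not separated there. In hyperoxia 2 of 17 probe sets passed, Txnrd1 1421529_a_at lower and Mt1 1422557_s_at higher at day 12, beside 12.6% of all probe sets. In room air 2 of 17 passed, Txnrd1 1421529_a_at lower and Sod1 1451124_at higher, beside 12.4% of all. The member share lies near the background in both, so the count is no result about the family. At an unadjusted p under 0.05 the members numbered 4 of 17 in hyperoxia, beside 25.57% of all probe sets, and 5 of 17 in room air, beside 25.79%. The median absolute difference over members was 0.14 in hyperoxia and 0.23 in room air, beside 0.21 over all probe sets in each.

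Txnrd1 1421529_a_at read 11.25, 11.26 and 11.43 at day 12 in hyperoxia, against 12.41, 11.78 and 11.83 at day 7. In room air it read 11.37, 11.19 and 11.44 at day 12, against 11.86, 12.02 and 11.58 at day 7. All day 12 arrays lay below all day 7 arrays in both gases. Day 12 was lower by a difference of -0.69 ± 0.15 in hyperoxia (limma adjusted p = 0.00304) and -0.49 ± 0.15 in room air (limma adjusted p = 0.0316). The room air call ended without 1 of 4 arrays in turn: day 7 replicate 1 (adjusted p = 0.0849), day 7 replicate 2 (0.128), day 12 replicate 1 (0.0607) or day 12 replicate 2 (0.125). The group means in hyperoxia were 12.00, 11.75, 11.62 and 11.31 at days 7, 8, 10 and 12, against 11.82, 11.71, 11.60 and 11.33 in room air. Ordered by level, 2 of the 7 steps between neighbouring groups exceeded the pooled SD of 0.17, the step between the day 12 and day 10 groups and that between hyperoxia and room air at day 7. The other Txnrd1 probe sets ran the same way with adjusted p above the threshold: -0.49 and -0.32 in hyperoxia (0.221 and 0.486) and -0.48 and -0.69 in room air (0.23 and 0.0874).

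Mt1 1422557_s_at read 10.92, 11.00 and 11.07 at day 12 in hyperoxia, against 10.14, 10.31 and 9.86 at day 7, and no array overlapped. In room air it read 10.70, 11.38 and 10.43 at day 12, against 10.40, 10.70 and 10.55 at day 7, and the groups overlapped. The differences were 0.90 ± 0.22 in hyperoxia (limma adjusted p = 0.0113) and 0.29 ± 0.22 in room air (0.464). The difference between these, hyperoxia minus room air, was 0.61 ± 0.32 and did not pass (limma adjusted p = 0.816). Mt1 is thus not shown to change unequally in the gases from day 7 to day 12. Without hyperoxia day 7 replicate 3 the Mt1 difference was 0.78 and its adjusted p 0.0612. Mt2 stood at 9.84, 10.17 and 10.67 at day 12 in hyperoxia, against 9.68, 9.83 and 9.70 at day 7, with no overlap; its difference of 0.49 ± 0.23 did not pass (limma adjusted p = 0.18) and was 0.27 without hyperoxia day 12 replicate 3. Nor did 0.44 ± 0.23 in room air pass (limma adjusted p = 0.234).

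Sod1 1451124_at read 12.89, 13.10 and 12.99 at day 12 in room air, against 12.10, 12.49 and 12.49 at day 7, with no overlap. In hyperoxia it read 12.71, 12.93 and 12.76 at day 12, against 12.71, 12.91 and 12.34 at day 7, and the groups overlapped. Its difference was 0.15 ± 0.17 in hyperoxia (limma adjusted p = 0.648) and 0.64 ± 0.17 in room air (0.0179). The difference between these, hyperoxia minus room air, was -0.49 ± 0.24 and did not pass (limma adjusted p = 0.796). The second Sod1 probe set, 1435304_at, gave -0.09 in hyperoxia and 0.05 in room air, so 1 of the 2 probe sets passed. The Sod1 call ended without room air day 7 replicate 1 (adjusted p = 0.0945) and without room air day 12 replicate 2 (adjusted p = 0.0702).

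Nqo1 in room air read 9.20, 9.40 and 9.03 at day 12, against 7.95, 8.94 and 8.26 at day 7; the groups did not overlap, but the difference of 0.83 ± 0.27 missed the threshold (limma adjusted p = 0.052). In hyperoxia it was 0.58 ± 0.27 (adjusted p = 0.183), and 0.26 without hyperoxia day 12 replicate 3. Sod2 1417193_at gave -0.01 in hyperoxia and -0.20 ± 0.09 in room air (limma adjusted p = 0.181), which did not pass. Counting non-overlapping arrays, in room air 2 members lay above at day 12 (Nqo1 and Sod1) and 4 probe sets below (the 3 of Txnrd1 and Sod2 1417193_at), against 28.3% of all probe sets in either direction. In hyperoxia 2 lay above (Mt1 and Mt2) and 1 below (Txnrd1), against 26.4%. The change in the hyperoxia effect between day 12 and day 7 gave 0 calls among 17 members and 0% of all probe sets, of which 983 had an unadjusted p under 0.05.

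**Figure D3:**
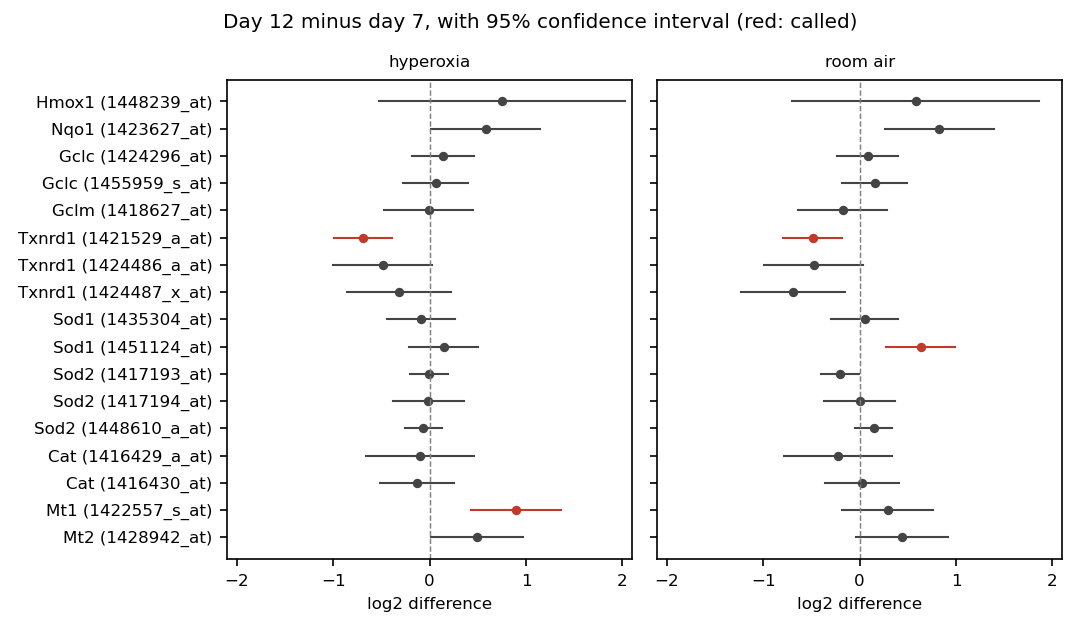
Day 12 minus day 7 (log2 difference, horizontal axis) for the 17 probe sets in hyperoxia, left, and room air, right; points are limma estimates with 95% confidence intervals, and red marks an adjusted p under 0.05. Txnrd1 1421529_a_at is red in both panels, Mt1 only in hyperoxia and Sod1 1451124_at only in room air; the differences between the gases did not pass the test.

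Several members varied with markers of other tissues. Over the 24 arrays Hmox1 correlated with the lens score (r = 0.686, rho = 0.677; r = 0.681 without the 2 arrays farthest from the median; 0.729 on deviations within groups). The 5 arrays with the highest Hmox1 were hyperoxia day 7 replicate 3, hyperoxia day 10 replicate 2, hyperoxia day 12 replicates 2 and 3, and room air day 12 replicate 3, whose lens scores were 13.76, 13.29, 13.73, 13.98 and 14.00. Room air day 7 replicate 1, with a lens score of 13.44, read 8.69. Only 0.208% of all probe sets had a higher r with the lens score. Nqo1 followed the pigment score with r = 0.82 (0.807 within groups; 0.196% of all probe sets higher), Mt2 with 0.667 (0.644) and Mt1 with 0.729 (0.45). Arrays of one day share their age, with which the pigment score also moved. Its mean was 11.12 at day 12 in hyperoxia and 11.08 in room air, against 9.85 and 10.39 at day 7.

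With the lens and pigment scores as covariates no member was called in either age comparison. Calls over all 15838 probe sets fell too, from 1993 to 606 in hyperoxia and from 1958 to 1289 in room air. Txnrd1 1421529_a_at gave -0.68 in hyperoxia (adjusted p = 0.0611) and -0.47 in room air (adjusted p = 0.0944), close to the differences above, while Mt1 gave 0.57 in hyperoxia (adjusted p = 0.283), Sod1 1451124_at 0.52 in room air (adjusted p = 0.0955) and Nqo1 0.41 in room air (adjusted p = 0.228). Mt2 in hyperoxia was then -0.011 and Nqo1 -0.19. The day 12 minus day 7 difference of Hmox1 was larger with the covariates and did not pass: 1.44 ± 0.46 in hyperoxia (limma adjusted p = 0.092), against 0.75 ± 0.61 without them, and 1.22 ± 0.39 in room air (0.0646), against 0.58 ± 0.61. Its average hyperoxia difference was 0.10 ± 0.19. Because the pigment score includes Rlbp1, also a retina marker, this fit does not fully separate other tissue from retina. Which part of these differences belongs to the other tissues was not tested beyond this fit.

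**Figure D4:**
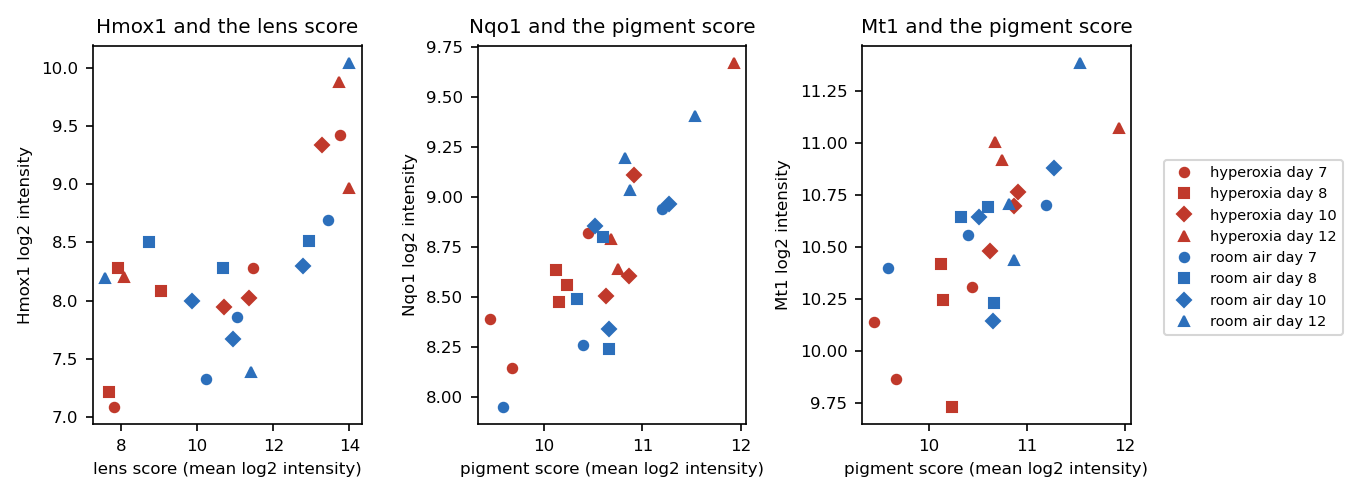
Log2 level of Hmox1 against the lens score, and of Nqo1 and Mt1 against the pigment score (each score a mean log2 of its markers), 1 point per array for 24 arrays. The 5 highest Hmox1 arrays have lens scores of 13.29 to 14.00, and Nqo1 is higher on arrays with a higher pigment score (r = 0.82).

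The genes whose pattern over the 24 arrays came closest are named for 4 members, those with the widest range of group means when each gene is taken by its probe set of highest mean intensity. Hmox1 came nearest to Bfsp1, a lens filament gene (r = 0.858), then Caprin2 (0.785) and Crygf, a lens crystallin (0.778). Mt1 came nearest to Sncb (0.816), Psd3 (0.81) and Flvcr2 (0.804), Mt2 to Acta2 (0.807), Oca2 (0.793) and Folr1 (0.786), and Nqo1 to Mgll (0.82), Acyp2 (0.817) and Tuba4a (0.809).

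Other genes of these pathways, in lists compiled with earlier results of these data known, gave 0 calls in each hyperoxia comparison and in the difference of hyperoxia effects. The counts that follow are for day 12 minus day 7, where 12.6% of all probe sets passed in hyperoxia and 12.4% in room air; nothing particular to a list is read from them. NRF2 regulators had 8 genes tested, and at day 12 in hyperoxia 1 fell, Bach1, an NRF2 antagonist at heme-related genes (-0.43 ± 0.12, limma adjusted p = 0.0185), and none in room air. Of 13 other NRF2 targets, Tkt, a pentose phosphate enzyme, rose in both (0.39 in hyperoxia, 0.57 in room air), and Srxn1 and Ephx1 rose in room air (0.83 and 0.63). No glutathione gene of 7 was called. Of 15 peroxidase, peroxiredoxin and thioredoxin genes, 4 fell in hyperoxia (Prdx2, Prdx4, Txnip and Msra) and 3 in room air (Prdx4, Txnip and Msra), while Gpx4 rose in room air by 0.49. Txnip, which binds and blocks thioredoxin, fell by 0.98 in hyperoxia and by 1.23 in room air. Of 12 zinc, copper and metallothionein genes, Mt3, the neuronal metallothionein, rose in both (0.92 ± 0.24 in hyperoxia, limma adjusted p = 0.0159; 0.86 ± 0.24 in room air, 0.0244). Urod was the only heme gene of 6 called, lower by -0.34 in hyperoxia, and of 8 glucocorticoid-responsive genes Tsc22d3 rose in hyperoxia (0.42) and Sgk1 in room air (1.23). List medians were between -0.07 and 0.27 at day 12 minus day 7, beside -0.03 over all probe sets.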

How the data were processed

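Retinal RNA of 24 samples was measured on 24 arrays, 3 in each of 8 groups. The authors deposited linear intensities, 1 for each probe set and array; how they were extracted and scaled is not given in the sources used here. Trimmed array means lay at 1500.35 to 1500.4, while medians ran from 570.15 to 679.65. Deposited intensities were taken to log2 and quantile normalized, because the array medians spanned 0.253. Values under the 20th percentile (136.2) were raised to it, and probe sets whose mean lay under the 30th percentile were removed, which left 15838 with 0.343% of values at the floor. The number of arrays limits the precision.

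Of 22690 probe sets, 64 were controls, and 20380 had 1 gene symbol, 691 several and 1555 none. Members were matched by platform symbol, and all 10 symbols were found by gene identifier in the current gene table. Group means were fitted in limma 3.58.1 (R 4.3.3), 1 fit of 24 arrays, with Benjamini-Hochberg adjustment over all tested probe sets and calls at an adjusted p under 0.05. The fit was also run on simulated arrays with known changes and independent noise, which lack the shared lens and pigment variation of these arrays. Its outcome is not given here and is not used as support. A member probe set counted as a result of a comparison where its unadjusted p was under 0.05. Statistics of other members, such as the average differences of Hmox1 and Nqo1, are given as description. Listed genes were named when called, and some that were not called are named under other observations. Per-array values are given for the probe sets the results turn on. Replicates correlated at 0.946 to 0.985 and no arrays were identical. Of 18 pairs of same-numbered arrays in compared groups, 9 had deviations that correlated over 0.1, and in 2 of 6 comparisons all 3 pairs did. The members and lists were chosen with earlier results of these data known. Alternatives were another scaling, floor, filter, prior, probe choice, array choice, a replicate block, and lens and pigment scores as covariates. Promoters came from RefSeq, GRCm38.p6; figures were drawn with Python 3.11.15 and matplotlib 3.10.9.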

Additional observations from a re-analysis of the deposited data

How the results depend on the processing

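The 6 counts of member calls for hyperoxia against room air, for their average and for the difference of hyperoxia effects were 0 under every alternative run. Counts for day 12 against day 7 moved. With the lens and pigment scores as covariates they were 0 in hyperoxia and 0 in room air; with only the arrays of the comparison, 1 in hyperoxia and 0 in room air, where Txnrd1 1421529_a_at had adjusted p = 0.0997 and 0.116, and Sod1 0.0512. Leaving out 1 array at a time gave 1 to 2 calls in hyperoxia and 0 to 2 in room air. The covariates turned the direction of 7 of 17 probe sets in hyperoxia and 1 in room air, 0 of them called; among those with an unadjusted p under 0.05 these were Mt2, at -0.011, and Nqo1, at -0.19, both in hyperoxia. Nqo1 in room air was called with the higher floor (adjusted p = 0.0483), with 1 probe set per gene (0.0439), without hyperoxia day 12 replicate 2 and room air day 8 replicate 1, the arrays most distant from their groups (0.0493), and without room air day 7 replicate 2 (1.11, 0.0128). Txnrd1 1424487_x_at was called in room air on the deposited scaling (-0.85, adjusted p = 0.0173), but with the higher floor its difference was -0.35 (adjusted p = 0.218). The cause of these changes was not tested. With the replicate number as a block, 2 member probe sets were called in hyperoxia and 3 in room air, the added one Txnrd1 1424487_x_at (limma adjusted p = 0.0364). The 6 other counts were 0. Of all 15838 probe sets, 2358 were called in hyperoxia and 2286 in room air with the block. All 3 same-numbered pairs correlated over 0.1 for hyperoxia against room air at day 12 (0.445, 0.234 and 0.391) and for day 12 against day 7 in hyperoxia (0.37, 0.151 and 0.305), and there the block left the counts at 0 and 2. The fit on the arrays of the comparison alone was not run for the average, which uses all arrays. The calls rest on 3 arrays a group, and levels near the floor understate differences; Hmox1 and Txnrd1 1424487_x_at each had 1 array at it.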

Other observations

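Some pathway list genes had an unadjusted limma p under 0.05 for hyperoxia averaged over the days, as 8.941% of all probe sets did, and none passed the adjusted test. They numbered 3 of 15 peroxidase, peroxiredoxin and thioredoxin genes, 3 of 6 heme genes, 2 of 12 zinc, copper and metallothionein genes and 2 of 8 glucocorticoid-responsive genes. Not all are named here. The NRF2 regulator, other NRF2 target and glutathione lists had 0. Prdx4, a peroxiredoxin of the endoplasmic reticulum, stood at -0.26 ± 0.07 (limma adjusted p = 0.145) and Txnip at 0.31 ± 0.11 (limma adjusted p = 0.366). Mtf1, the zinc sensor that drives metallothionein genes, stood at 0.26 ± 0.10 (limma adjusted p = 0.411), while Mt1 and Mt2 were at -0.15 and -0.23. The heme genes Hmox2, the constitutive heme oxygenase, and Blvra, a biliverdin reductase, stood at -0.16 ± 0.06 and -0.23 ± 0.10 (limma adjusted p = 0.383 and 0.474). Cebpd and Dusp1, both glucocorticoid-responsive, stood at -0.25 ± 0.08 and -0.20 ± 0.08 (limma adjusted p = 0.299 and 0.495). Alas2, an erythroid heme synthesis gene, fell by 1.08 in hyperoxia (limma adjusted p = 0.00692); it was the only one of 6 erythroid markers tested.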
